A study of Rattus norvegicus with 32 samples.

Results

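Ifi27 and 6 further interferon response genes (Irf7, Irf9, Stat2, Mx1, Mx2 and Ifit3) were followed in rat hippocampus, where they make up 7 of the 32883 genes counted. They were chosen by symbol, with earlier results of these data known, so their own values are given as a description, and every adjusted p is over all genes tested. Each symbol had a single Ensembl entry, the same for males and females: Ifi27 (ENSRNOG00000009263), Irf7 (ENSRNOG00000017414), Irf9 (ENSRNOG00000019478), Stat2 (ENSRNOG00000031081), Mx1 (ENSRNOG00000001959), Mx2 (ENSRNOG00000001963) and Ifit3 (ENSRNOG00000022839). RNA was sequenced from 32 Sprague-Dawley rats at postnatal day 65, with 4 males and 4 females in each of 4 diet groups. IS rats were always iron-sufficient, ISch rats were iron-sufficient with prenatal choline, FID rats were formerly iron-deficient, and FIDch rats were formerly iron-deficient with prenatal choline. The study's methods, which are written for the males, give the dams of the FID and FIDch rats a low-iron diet from early gestation to the first postnatal week, and the dams of the ISch and FIDch rats extra choline in mid to late gestation. All offspring were on an iron-sufficient diet at the time of sampling. The comparisons ask which differences in expression remain in the adult hippocampus after early-life iron deficiency or prenatal choline. Males formed sequencing batch I and females batch II, with different RNA extraction kits, so sex, batch and kit cannot be told apart. A single male was taken from each litter, and the litters of the females are not given in the sources used here.

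Interferons are secreted proteins that signal through surface receptors and the JAK kinases. Type I interferons bring Stat2 and Irf9 into the complex ISGF3, which binds the interferon-stimulated response element (ISRE) in the promoters of many genes. Irf7 is a transcription factor that drives interferon genes themselves and is itself induced by interferon. Ifi27 encodes a small interferon-induced mitochondrial protein, Mx1 and Mx2 encode dynamin-like GTPases that restrict viruses, and Ifit3 encodes an antiviral protein of the Ifit family. In brain, low basal activity of this pathway is known, with microglia, endothelial cells and neurons all able to respond.

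Promoter sequences, from RefSeq's GRCr8 assembly, were at hand for 6 of the 7 genes, and they are shown because they tell which of the genes carry the letters of the ISRE near their start. Both strands of the 250 bases before and 50 bases after each gene start were searched for the ISRE letters GAAANNGAAA, and for the gamma activated site TTCNNNGAA, which STAT dimers bind. The ISRE letters were present in 3.92% of 33469 promoters of the same length and occurred at least 2 times in 0.266%. The letters of the gamma activated site were present in 8.87%. The 200 bases before the gene start are printed 5′ to 3′ on the gene's strand for the 4 genes with a match, with the match in capitals. They lie at chr6:128355112-128355311 (plus strand, Ifi27), chr1:205800024-205800223 (minus strand, Irf7), chr1:241527126-241527325 (plus strand, Ifit3) and chr15:33065636-33065835 (plus strand, Irf9).
Ifi27: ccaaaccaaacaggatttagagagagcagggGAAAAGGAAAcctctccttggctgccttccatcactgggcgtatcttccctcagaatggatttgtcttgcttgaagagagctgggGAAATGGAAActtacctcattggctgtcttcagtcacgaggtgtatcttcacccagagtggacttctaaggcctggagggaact
Irf7: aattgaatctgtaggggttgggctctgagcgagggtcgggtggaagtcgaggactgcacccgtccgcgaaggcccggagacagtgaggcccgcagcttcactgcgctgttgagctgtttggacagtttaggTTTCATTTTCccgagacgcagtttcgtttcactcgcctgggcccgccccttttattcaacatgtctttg
Ifit3: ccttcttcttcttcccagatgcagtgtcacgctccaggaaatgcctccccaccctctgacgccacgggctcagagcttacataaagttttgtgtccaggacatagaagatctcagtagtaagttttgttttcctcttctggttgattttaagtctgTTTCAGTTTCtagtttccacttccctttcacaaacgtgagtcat
Irf9: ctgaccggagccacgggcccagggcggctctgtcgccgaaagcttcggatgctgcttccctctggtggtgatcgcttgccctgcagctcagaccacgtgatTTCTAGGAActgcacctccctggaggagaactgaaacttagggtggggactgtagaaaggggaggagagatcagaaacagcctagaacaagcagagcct
Ifi27 had 2 ISRE matches, at -169 to -160 and at -84 to -75 from the gene start. Irf7 had 1 on the opposite strand at -69 to -60, and Ifit3 had 1 on the opposite strand at -44 to -35. Irf9 held the gamma activated site letters at -99 to -91. No match to either set of letters was found in these windows of Stat2 and Mx1.

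Levels are CPM, a gene's counts scaled to the library's total, after TMM normalization over the 16 libraries of a sex. Male libraries held 3515806 to 9517503 counts and female libraries 18439999 to 26616318, so that a count of 0 would have allowed up to 0.313 to 0.847 CPM in males and 0.113 to 0.163 CPM in females, for counting error only. None of the 7 genes had a count of 0 in any library. Ifit3 alone fell under 10 counts, the limit below which a count is reported as low, and the lowest count of any other of the 7 was 17. Markers of hippocampal neurons summed to 4590 to 5910 CPM over all libraries with 10 of 10 detected in each group, and those of leukocytes to 9.74 to 18.1 CPM with 8 or 9 of 10 detected. Detection included neuron and leukocyte markers near the floor. In males Spink8 averaged 0.124 CPM, with 6 libraries at 0, and Fibcd1 0.625 CPM, with 5 at 0. The largest parts of the male neuron sum were Slc17a7 (2360 CPM) and Camk2a (1660 CPM). Those of the male leukocyte sum were Cd4 (4.99 CPM), Cd3e (4.18 CPM) and Ptprc (4.11 CPM). The leukocyte markers Cd3g (0.0261 CPM) and Ms4a1 (0.0362 CPM) were at 0 in 13 and 12 male libraries. Choroid plexus markers summed to 416 CPM in male FID 4 and to 3.42 to 21.4 CPM elsewhere. In 3 male libraries, ISch 1, ISch 2 and FIDch 2, the deposited column name has another form than in the other 13. What the form stands for is not given in the sources used here.

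**Figure D1:**
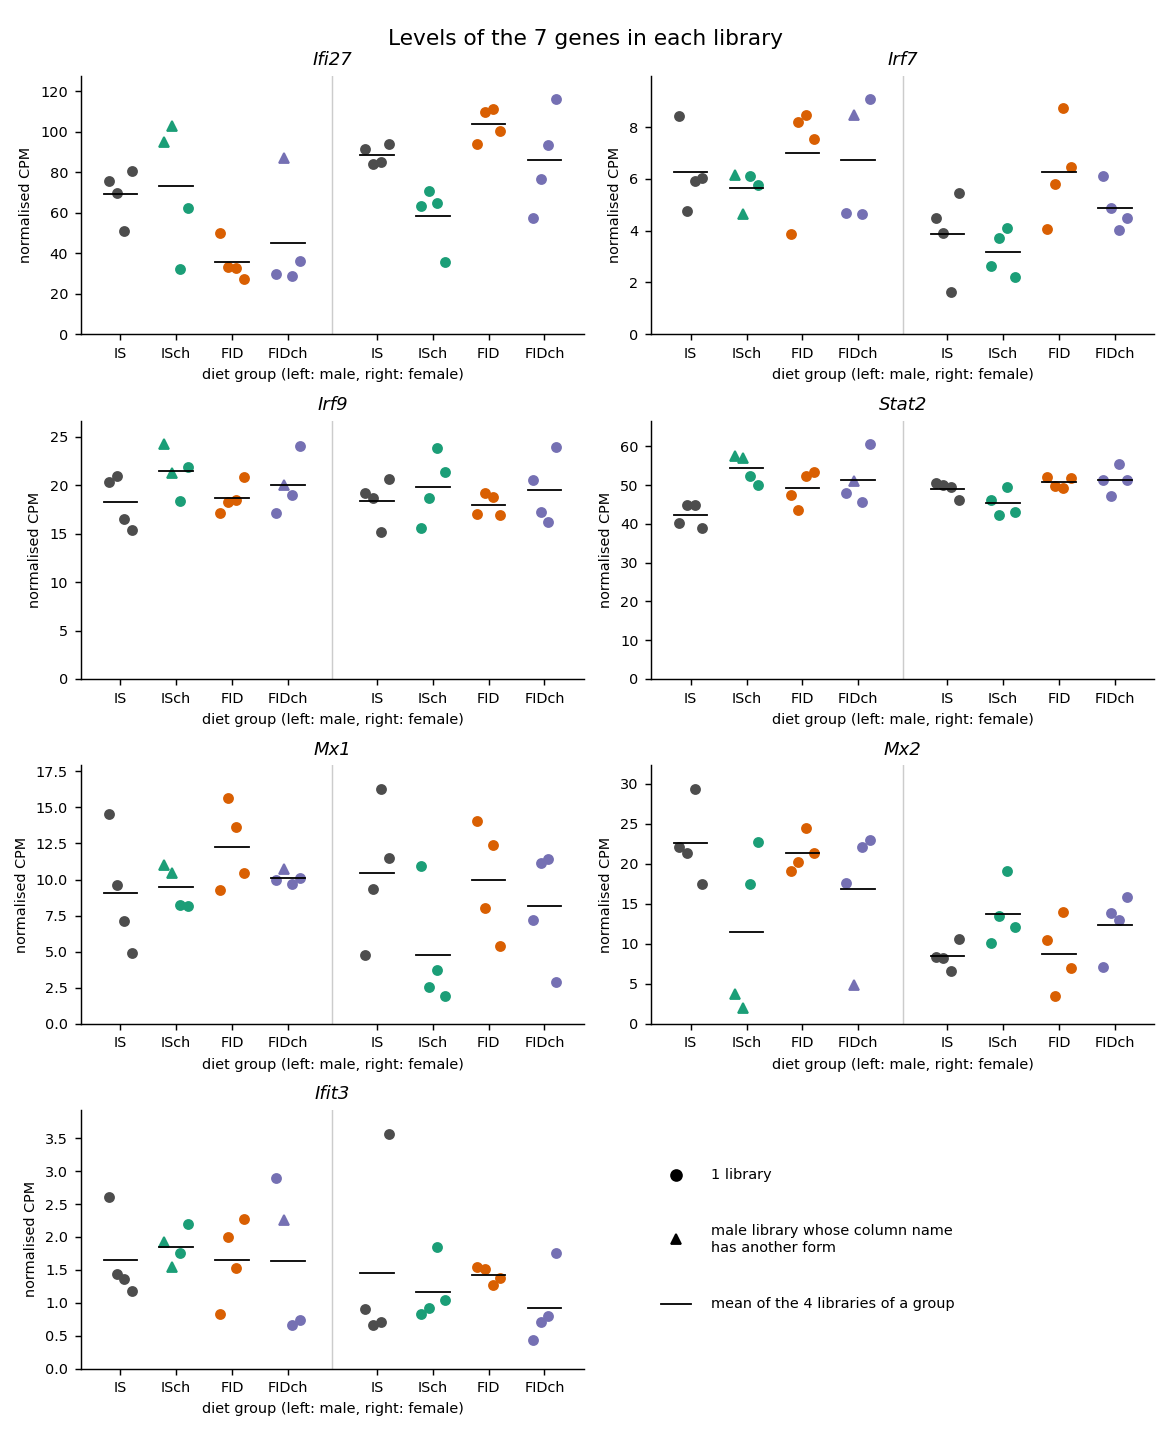
Level of each of the 7 genes in each of the 32 libraries, as normalised CPM on a linear axis from 0, by diet group for males (left of the grey line) and females (right). Points are libraries, triangles are the 3 male libraries whose column name has another form, and lines are means of 4 libraries. Ifi27 was at 27.2 to 49.8 CPM in male FID against 50.8 to 80.3 in male IS, and at 94.1 to 111.3 in female FID against 84.1 to 93.7 in female IS.

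Ifi27 was lower in male FID rats than in male IS rats and did not follow that direction in females. In the 4 male IS libraries its level was 75.5, 69.6, 50.8 and 80.3 CPM, and in the 4 male FID libraries it was 49.8, 33.4, 32.7 and 27.2 CPM. All FID libraries lay below all IS libraries, with the highest FID library (49.8) close under the lowest IS library (50.8). The share of all genes that part 2 groups without overlap was not counted, here or for the separations described below. The fitted ratio of FID to IS was 0.514, a log2 fold change of -0.96 (SE 0.18, n = 4 per group), and the adjusted p over all genes tested was 0.786. The criterion used throughout, which the study also used, asks for an unadjusted p under 0.05 together with a log2 fold change beyond 0.2 in either direction. Ifi27 met it, as did 4.62% of all genes in that comparison, and did so without any 1 library (-1.15 to -0.85). Of the 9 marker lists, 2 were higher in every male FID than in every male IS library. Leukocyte markers summed to 14.4 to 16 CPM in FID against 9.74 to 14.2 in IS, with Nkg7 at 0 in all male libraries, and choroid plexus markers to 7.63 to 416 CPM against 4.43 to 6.8, with Otx2 at 0 in all male libraries. The other 7 lists overlapped, microglia markers among them at 274 to 342 CPM in FID and 315 to 337 in IS. The part of these cell types in the difference was not tested. In bulk tissue, fewer cells of a type and less RNA per cell cannot be told apart.

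The male groups with choline were each split in their Ifi27 levels. In male ISch the values were 94.9, 102.6, 32.0 and 62.4 CPM, and in male FIDch they were 29.5, 86.9, 28.5 and 35.9 CPM. Among these values, 94.9 and 102.6 in ISch and 86.9 in FIDch, are those of the 3 libraries with the other form of name, and they are the 3 highest of all 16 male libraries. The other 13 male libraries ran from 27.2 to 80.3 CPM with a median of 35.8. Against IS the log2 fold change was -0.70 (SE 0.29, adjusted p 0.576) in FIDch and 0.08 (SE 0.27, adjusted p 0.933) in ISch, and the FIDch value met the criterion. The FIDch value fell short of the criterion without any 1 of IS 2, IS 4, FIDch 1, FIDch 3 or FIDch 4 (-0.70 to -0.52). Without FIDch 2 it became -1.15. Without ISch 1 and ISch 2, left out after their high values were seen, the ISch value turned to -0.55 (SE 0.24, adjusted p 0.903). It met the criterion, but a turn downward was bound to follow from that choice, and only 32.0 and 62.4 CPM remained in ISch. FIDch against ISch stood at -0.83 on the log2 scale (SE 0.35, adjusted p 0.326), at the criterion. Without ISch 1, ISch 2 and FIDch 2, again left out after their values were seen, it was -0.63 (SE 0.21), also at the criterion. The value of -0.83 fell short of it without any 1 of ISch 1, ISch 2, FIDch 1, FIDch 3 or FIDch 4. In FIDch against FID the log2 fold change was 0.24 (SE 0.30, adjusted p 0.723), and without FIDch 2 it was -0.20.

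In females Ifi27 was highest in FID and lowest in ISch. The values were 91.6, 84.1, 85.0 and 93.7 CPM in IS, and 94.1, 109.8, 111.3 and 100.2 CPM in FID. They were 63.2, 70.7, 64.6 and 35.6 CPM in ISch, and 57.4, 76.7, 93.5 and 115.9 CPM in FIDch. FID lay above IS and ISch below IS in every library, with no overlap in either case, while FIDch ran from within the range of ISch to above every FID library. No share of all genes without overlap stands beside these separations. The spread was small in female IS, at 88.6 ± 4.76 CPM (SD, n = 4), and much wider in FIDch, at 85.9 ± 24.9 CPM. ISch against IS stood at -0.60 on the log2 scale (SE 0.16, adjusted p 0.0835), the lowest adjusted p of any of the 7 genes in the 10 comparisons of groups. FID exceeded IS by 0.23 (SE 0.06, adjusted p 0.156) and FIDch exceeded ISch by 0.55 (SE 0.23, adjusted p 0.604), and all 3 differences met the criterion. The FID value fell under 0.2 without FID 3 (0.19), and the FIDch value fell short without ISch 4, FIDch 3 or FIDch 4 (0.37 to 0.51). Against IS, FIDch was at -0.05 (SE 0.17, adjusted p 0.938). Against FID it was at -0.28 (SE 0.17, adjusted p 0.416), and at -0.45, at the criterion, without FIDch 4. This library, the highest in FIDch at 115.9 CPM, stood apart from its group over all genes, as given below. Microglia markers summed to 349 to 368 CPM in female IS and to 307 to 343 in female ISch, so that this list and Ifi27 were both lower in every ISch library. They summed to 306 to 329 CPM in FIDch and 337 to 376 in FID. Markers of hippocampal neurons summed to 4750 to 5200 CPM in FIDch and 5250 to 5830 in ISch, without overlap. The part of these cells in the levels was not tested.

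In order of the group means, male Ifi27 ran from FID (35.8 ± 9.76 CPM) through FIDch (45.2 ± 28) and IS (69.1 ± 12.9) to ISch (73 ± 32.4), each with n = 4. Neighbours in that order overlapped, and neither FID and FIDch nor IS and ISch differed at the criterion. In females the order was ISch (58.5 ± 15.6), FIDch, IS and FID (104 ± 8.16). FIDch and IS, in the middle of it, overlapped. The effect of FID against IS differed between the sexes by 1.18 on the log2 scale (SE 0.19, adjusted p 0.0439, edgeR's quasi-likelihood test of the sex by group term), in a fit in which 0.0396% of genes had an adjusted p under 0.05. The adjusted p was over 0.05 in 13 of the 16 fits that left out 1 library. Sex here is also batch and kit. For FIDch and ISch against IS, where 0.362% and 1.28% of genes had an adjusted p under 0.05, the differences between the sexes in Ifi27 were 0.67 (SE 0.37, adjusted p 0.433) and -0.68 (SE 0.36, adjusted p 0.37). The latter was -0.06 without male ISch 1 and ISch 2, left out after their values were seen.

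Mx2 separated the same 3 male libraries, in the opposite direction. It was at 3.74 CPM (31 counts) in ISch 1, 2.02 CPM (17 counts) in ISch 2 and 4.80 CPM (17 counts) in FIDch 2. In the other 13 male libraries it lay between 17.4 and 29.3 CPM (118 to 218 counts). The gap between these 3 libraries and the rest was thus wider than the whole range of the rest on a ratio scale. In male IS it was at 22.1, 21.3, 29.3 and 17.4 CPM, in male FID at 19.1, 20.2, 24.4 and 21.3 CPM, and in the remaining ISch and FIDch libraries at 17.5 to 22.9 CPM. ISch stood at -0.95 against IS on the log2 scale (SE 0.48, adjusted p 0.517), which did not meet the criterion. Without ISch 1 and ISch 2, left out after their low values were seen, ISch stood at -0.16 (SE 0.19). It met the criterion without ISch 3 (-1.20) or without ISch 4 (-1.55), with all genes of at least 1 count and in the fit of all 4 groups (-0.95 in both cases). The other 5 genes did not part these 3 libraries from the rest. Irf7 was at 4.63 to 8.47 CPM in them and 3.87 to 9.07 in the others, and Mx1 at 10.4 to 11 against 4.87 to 15.6. The 3 libraries overlapped the others in the sum of every marker list, with microglia markers at 294 to 327 CPM in the 3 libraries and 274 to 342 in the others. FIDch 2 had the lowest total of all libraries, 3515806 counts, while ISch 1 and ISch 2 had 8352157 and 8387006.

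**Figure D2:**
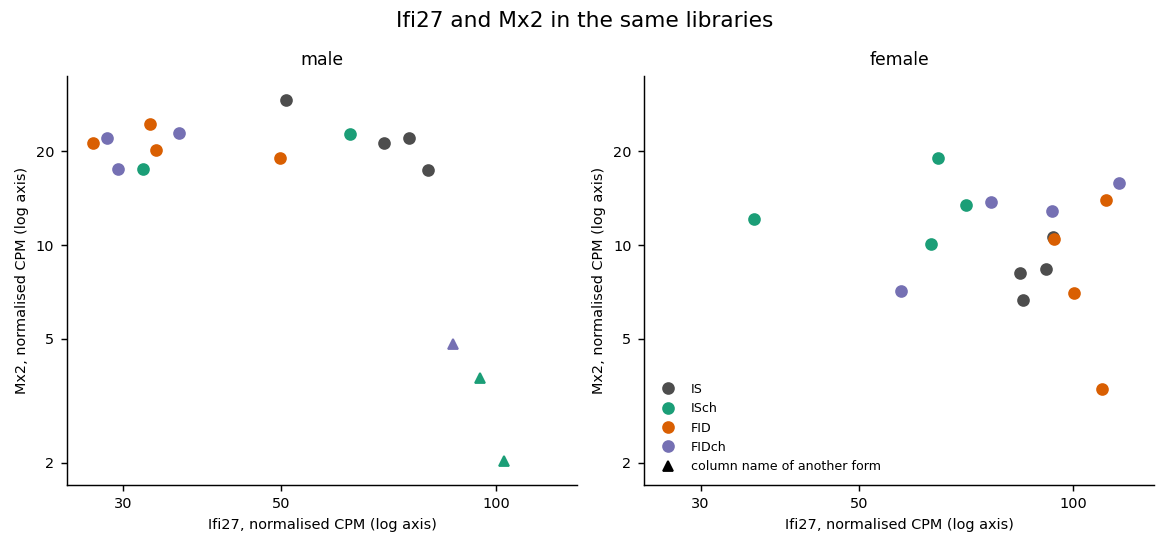
Ifi27 (horizontal) and Mx2 (vertical) in the same libraries, as normalised CPM on log axes, with males on the left and females on the right and a colour for each diet group. The 3 triangles are the male libraries whose column name has another form, at 86.9 to 103 CPM of Ifi27 and 2.02 to 4.80 CPM of Mx2.

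Likeness between genes was measured as Pearson's r of log2(CPM + 0.5) after each diet group's mean had been subtracted, as a description over libraries that share diet groups and a sequencing batch. Since the 3 libraries form a cluster of their own, no correlation of Ifi27 with Mx2 is given over all males. Within the other 13 male libraries r was -0.17 (Spearman's rho -0.19, and r -0.29 without the 2 libraries farthest from the median of Ifi27). Over the 16 female libraries r was 0.34 (rho 0.33, and r 0.14 without the 2 farthest). By the r over all 16 libraries of a sex, with the 3 libraries included in males, the genes most like Ifi27 in males were Mest (r 0.90), Alpg (0.89), Arsa (0.88), Gpatch2 (0.85) and Ino80 (0.84), and in females MGC95210 (0.90), Sec61g (0.88), Nol10 (0.85), Mccc2 (0.85) and Clcc1 (0.84). None of these 10 belonged to the interferon list described further on. Without the 2 libraries farthest from the median of Ifi27 their r was 0.735 to 0.817 in males and 0.655 to 0.804 in females. For the male genes no r over the other 13 libraries is given. Likeness to Ifi27 and a shared difference of the 3 libraries can therefore not be told apart. For other members of the 7 such genes were among the nearest 5 in females only. Isg15 was the third for Irf7 (r 0.84, and 0.715 without the 2 libraries farthest from the median of Irf7). Uba7 was the third for Ifit3 (r 0.80, and 0.621 without the 2 farthest from the median of Ifit3). The share of list genes among all genes ranked was not counted, so no conclusion is drawn from their presence or absence. The best placed of the other 6 genes was Irf9 in males, in place 2729 of 12769 with r 0.25, and Ifit3 in females, in place 1044 of 12434 with r 0.41. Chosen after its values were seen, the gene most like Mx2 in females was Chmp7 (r 0.95), an ESCRT gene.

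In females Mx2 was higher in both choline groups than in IS. Its values were 8.38, 8.15, 6.64 and 10.6 CPM in IS, 10.1, 13.5, 19.1 and 12.1 in ISch, and 7.10, 13.8, 12.9 and 15.8 in FIDch. ISch 1 was the only ISch library within the range of IS, and FIDch 1 the only FIDch library within it. The log2 fold change was 0.69 (SE 0.19, adjusted p 0.0986) for ISch and 0.55 (SE 0.22, adjusted p 0.322) for FIDch, both at the criterion, against the same 4 IS libraries. The FIDch value fell short of it in 6 of the 8 fits without 1 library (IS 1, IS 2, IS 3, FIDch 2, FIDch 3 or FIDch 4), and the ISch value in none. Microglia markers were lower in every library of both choline groups than in IS, as given above, and choroid plexus markers summed to 3.55 to 6.01 CPM in FIDch against 6.02 to 9.44 in IS, and their part was not tested. Female FID had 10.5, 3.45, 14.0 and 7.01 CPM, a spread on both sides of IS, with a log2 fold change of 0.05 (SE 0.30, adjusted p 0.974). The difference between the sexes in ISch against IS was 1.64 (SE 0.59, adjusted p 0.189). It was 0.84 (SE 0.31) without male ISch 1 and ISch 2, left out after their values were seen.

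Mx1 varied most in females, by 8.46 times between its lowest and highest library. It was at 4.80, 9.31, 16.3 and 11.5 CPM in female IS and at 11, 2.56, 3.71 and 1.93 CPM in female ISch, of which ISch 2, 3 and 4 lay below every IS library. In female FID it was at 14.0, 8.05, 12.4 and 5.40 CPM, and in female FIDch at 7.22, 11.1, 11.4 and 2.92 CPM. ISch against IS stood at -1.13 on the log2 scale (SE 0.49, adjusted p 0.287), at the criterion. Without ISch 1, which stood apart from its group over all genes as given below, that became -1.95. Without any 1 of IS 2, IS 3, IS 4, ISch 2, ISch 3 or ISch 4 it lay between -1.18 and -0.83 and fell short of the criterion. FIDch stood at 0.77 against ISch (SE 0.54, adjusted p 0.737) and at 1.59, at the criterion, without ISch 1. The difference between the sexes in ISch against IS was -1.17 (SE 0.64, adjusted p 0.387). Without female ISch 1 it was -2.00 (SE 0.50, adjusted p 0.0375). Male Mx1 ran from 4.87 CPM in IS 4 to 15.6 CPM in FID 2, with 9.72 to 10.7 CPM in the 4 FIDch libraries, and met the criterion in none of the 5 male comparisons. Without IS 1 it did so in FID against IS (0.77) and FIDch against IS (0.48), and without FID 1 (-0.41) or FID 4 (-0.37) in FIDch against FID. Chosen after their values were seen, the genes most like Mx1 in females were Slc6a7 (r 0.94), a proline transporter, and Nr2f2 (r 0.94), a nuclear receptor. Mx1 and Mx2 are paralogs, as Ifit3 is of the other Ifit genes, and how reads that fit several genes were counted is not given in the sources used here, so their split is uncertain.

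Stat2, the interferon-specific STAT, was the steadiest of the 7 genes, with a highest library 1.55 times the lowest in males and 1.31 times in females. Male IS had 40.2, 44.9, 44.8 and 39.0 CPM and male ISch 57.6, 57.1, 52.4 and 50.0 CPM. Male FID had 47.4, 43.6, 52.4 and 53.3 CPM and male FIDch 48.0, 51.1, 45.7 and 60.5 CPM. All ISch and FIDch libraries lay above all IS libraries, and FID overlapped IS with FID 2 alone. The log2 fold changes against IS were 0.36 for ISch (SE 0.08, adjusted p 0.125), 0.28 for FIDch (SE 0.10, adjusted p 0.472) and 0.22 for FID (SE 0.09, adjusted p 0.786), all at the criterion and all against the same 4 IS libraries. FID against IS fell short of the criterion without IS 1, IS 4, FID 3 or FID 4, and FIDch against IS without FIDch 4. Female Stat2 was at 46.1 to 50.6 CPM in IS, 42.3 to 49.5 in ISch, 49.2 to 52.1 in FID and 47.2 to 55.3 in FIDch, and met the criterion in no female comparison, with 0.18 (SE 0.07, adjusted p 0.592) in FIDch against ISch, which passed 0.2 without ISch 3 or FIDch 2 (0.22 in both cases). The effect of ISch against IS differed between the sexes by -0.48 (SE 0.10, adjusted p 0.0191). The adjusted p was 0.0536 without male ISch 1, 0.0527 without male ISch 2, and 0.172, with a difference of -0.40, without both. In the iron by choline interaction of the males, Stat2 stood at -0.30 (SE 0.13, adjusted p 0.267).

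Irf9, the DNA-binding partner of Stat2 in ISGF3, met the criterion in none of the 10 comparisons. It was at 15.3 to 24.3 CPM in males and 15.1 to 24.0 CPM in females, and its group means lay between 18.0 CPM in female FID and 21.5 CPM in male ISch. Its fitted differences ran from -0.11 (FIDch against ISch, male) to 0.23 (ISch against IS, male, SE 0.12, adjusted p 0.546). The latter met the criterion without IS 1 or without ISch 3. Within diet groups Irf9 and Stat2 had a Pearson r of 0.59 (rho 0.54, and 0.40 without the 2 libraries farthest from the median of Irf9) in males and -0.05 (rho -0.17) in females.

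Irf7 was low, with 28 to 78 counts in male and 37 to 166 in female libraries. In female FID it was at 4.06, 5.80, 8.74 and 6.45 CPM, against 4.49, 3.90, 1.63 and 5.46 CPM in IS, 2.64, 3.70, 4.08 and 2.22 CPM in ISch and 6.12, 4.89, 4.03 and 4.49 CPM in FIDch. All but FID 1 lay above every IS library, and all but FIDch 3 above every ISch library. FID exceeded IS by 0.69 on the log2 scale (SE 0.30, adjusted p 0.422) and FIDch exceeded ISch by 0.63 (SE 0.21, adjusted p 0.556), both at the criterion. The first fell short of it without IS 2, IS 3, FID 2, FID 3 or FID 4 and with DESeq2. ISch against IS (-0.30) and FIDch against FID (-0.35) were short of the criterion in females. The former met it without IS 3 (-0.55), and the latter without FID 1 (-0.52). In males Irf7 was at 3.87 to 9.07 CPM, and its 5 differences, from -0.16 to 0.17, were each smaller than their SE.

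Ifit3 was close to the limit of what these libraries can show. Males had 5 to 23 counts, and 6 male libraries had under 10 (IS 3, IS 4, FID 1, FIDch 2, FIDch 3 and FIDch 4), so that it did not pass the filter on low counts in male FIDch against IS. Its male levels were 0.662 to 2.90 CPM. Females had 11 to 85 counts. Female IS 4 stood apart with 85 counts (3.57 CPM), while IS 1, IS 2 and IS 3 had 16 to 18 counts (0.657 to 0.909 CPM). With all libraries no difference met the criterion, with log2 fold changes from -0.68 to 0.15 and SEs of 0.29 to 0.60. Without IS 4, female FID exceeded IS by 0.92 (all 4 libraries, 1.26 to 1.54 CPM, above the remaining 3), where with it the difference was -0.04. Female FIDch 4 stood apart from its group over all genes, as given below. Without FIDch 4, female FIDch met the criterion against FID (-1.14, adjusted p 0.0414) and against ISch (-0.84, adjusted p 0.412), where with it the values were -0.64 and -0.34.

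**Figure D3:**
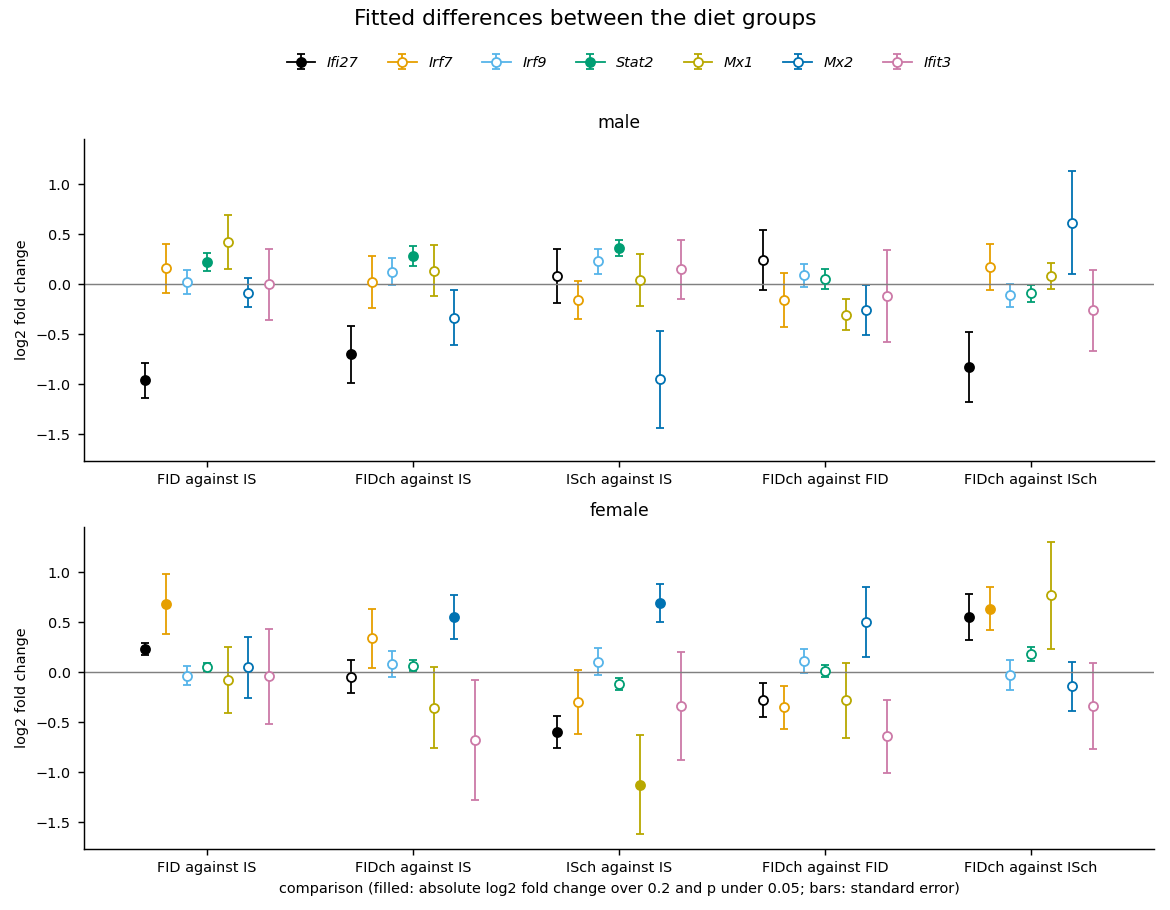
Log2 fold changes of the 7 genes in the 5 comparisons of diet groups, males above and females below, with bars for the standard error. Filled points met the criterion (absolute log2 fold change over 0.2 and p under 0.05). Ifi27 is at -0.96 in male and 0.23 in female FID against IS, and Ifit3 has no point in male FIDch against IS, where it was not tested.

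Counted over the genes, 2 of 7 were at the criterion in male FID against IS (4.62% of all genes), 2 of the 6 tested in FIDch against IS (6.12% of all genes), 1 of 7 in ISch against IS (8.06%), 0 in FIDch against FID (13%) and 1 in FIDch against ISch (8.12%). In females 2 of 7 were at the criterion in FID against IS (6.47% of all genes), 1 in FIDch against IS (8.98%), 3 in ISch against IS (10.3%), 0 in FIDch against FID (12.7%) and 2 in FIDch against ISch (4.57%). Directions were mixed within a comparison: Stat2 was higher and Ifi27 lower in male FID, and Mx2 was higher and Ifi27 and Mx1 lower in female ISch. The median log2 fold change of the genes tested was 0.02 in male FID, 0.05 in female FID and -0.30 in female ISch against IS, where the medians over all genes were -0.01, 0.00 and -0.00. These counts are a description of genes chosen with such results known. In the iron by choline interaction the adjusted p of the 7 genes ran from 0.267 to 0.987 in males and from 0.67 to 0.996 in females.

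The wider pathway was read from a list of 138 other genes, of which 131 were in the tables and 91 to 106 passed the low-count filter. It covers ligands, receptors, kinases and transcription factors, inhibitors, sensors and interferon-induced effectors. None of the 10 ligand genes in the tables, interferons and inflammatory cytokines, passed the filter in any comparison. In males 2 list genes were higher and 1 lower at the criterion in FID against IS (3.3% of 91 tested), 7 higher and 0 lower in FIDch against IS (7.69% of 91), and 3 higher and 2 lower in ISch against IS (5.26% of 95). In FIDch against FID there were 6 and 4 (10.6% of 94), and in FIDch against ISch 3 and 4 (7.29% of 96). Beside the shares of all genes given above, 1 of these 5 male shares was higher, that of FIDch against IS, and 4 were lower.

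In females the counts were 14 higher and 2 lower in FID against IS (15.1% of 106 tested, beside 6.47% of all genes), 16 and 1 in FIDch against IS (16.5% of 103, beside 8.98%) and 11 and 3 in FIDch against ISch (13.7% of 102, beside 4.57%). They were 4 and 5 in ISch against IS (8.82% of 102, beside 10.3%) and 4 and 5 in FIDch against FID (8.57% of 105, beside 12.7%). The median log2 fold change of the list stayed between 0.03 and 0.06 in all 5. No set test was made, and the 3 comparisons with IS share the same control libraries. The 3 comparisons with FIDch likewise share the FIDch libraries. The list was not counted again with single libraries left out. Female FIDch 4, which stood apart from its group over all genes as given below, is in each comparison with FIDch.

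**Figure D4:**
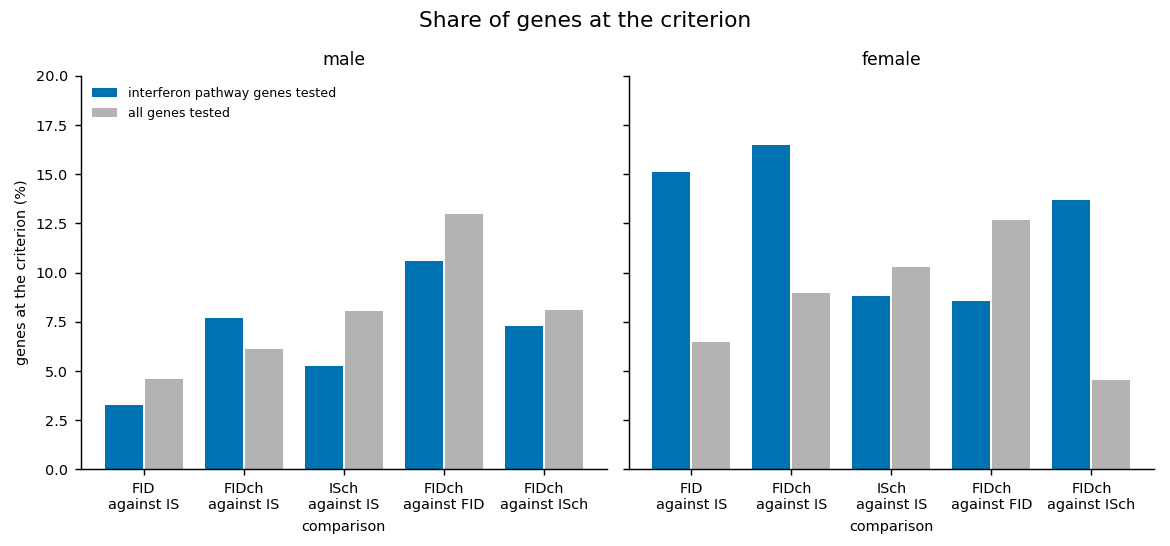
Share of genes at the criterion in each comparison of diet groups, in percent, for the interferon list (blue) and for all genes tested (grey), males on the left and females on the right. The blue bars are at 15.1%, 16.5% and 13.7% in female FID against IS, FIDch against IS and FIDch against ISch, beside grey bars at 6.47%, 8.98% and 4.57%.

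By role, 11 of the 70 effectors tested were higher and 0 lower in female FID against IS (15.7%), beside 2 of 8 inhibitors higher (25%, Usp18 and Socs3), 1 higher and 2 lower of 11 sensors (27.3%), and none of the 6 receptors and 11 kinases and transcription factors. The sensors were Dhx58 (0.42, SE 0.16, adjusted p 0.358), which was higher, and the Toll-like receptors Tlr3 (-0.33, SE 0.15, adjusted p 0.444) and Tlr7 (-0.34, SE 0.12, adjusted p 0.289), which were lower. They and the inhibitors are named after their values were seen. In female FIDch against IS 14 of 68 effectors were higher and 0 lower (20.6%), with 1 higher and 1 lower of 11 sensors, 1 of 11 kinases and transcription factors higher, and none of 7 inhibitors and 6 receptors. Largest among those at the criterion in female FID were Oasl (log2 fold change 1.06, SE 0.36, adjusted p 0.289), an oligoadenylate synthetase-like protein, at 0.551 ± 0.0613 CPM against 0.262 ± 0.0915 in IS, Rtp4 (0.94, SE 0.33, adjusted p 0.311) at 2.54 ± 0.531 against 1.32 ± 0.786, and Ifi44l (0.86, SE 0.39, adjusted p 0.441) at 0.563 ± 0.189 against 0.312 ± 0.12. In female FIDch against IS they were Oas1k (1.40, SE 0.52, adjusted p 0.275), an oligoadenylate synthetase, Isg15 (1.34, SE 0.39, adjusted p 0.175), a ubiquitin-like modifier, at 2.19 ± 0.713 against 0.866 ± 0.44 CPM, and Oas1a (0.99, SE 0.36, adjusted p 0.275). The group means of these 6 genes lay between 0.262 and 2.67 CPM. The lowest were those of Oasl and Ifi44l, at 0.262 to 0.563 CPM, where few counts stand behind each value.

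In female ISch against IS, Samd9, an antiviral factor that inhibits translation, was lower by 0.36 on the log2 scale (SE 0.08, adjusted p 0.0323), at 28.1 ± 2.12 against 36 ± 3.28 CPM. Ifnlr1, the type III interferon receptor (-1.67, SE 0.43, adjusted p 0.0715), was lower at the criterion there, and Isg15 (0.90, SE 0.39, adjusted p 0.28) and Bst2, the virus-tethering protein tetherin (0.54, SE 0.19, adjusted p 0.2), were higher. In female FIDch against FID the largest were Socs3 (-1.01, SE 0.37, adjusted p 0.177), an inhibitor of cytokine signaling, Oas1k (0.97, SE 0.40, adjusted p 0.227) and Psmb9 (0.57, SE 0.17, adjusted p 0.117), an immunoproteasome subunit. In female FIDch against ISch they were Oas1k (0.93, SE 0.41, adjusted p 0.619), Oas1a (0.75, SE 0.27, adjusted p 0.568) and Ifi44 (0.69, SE 0.20, adjusted p 0.556).

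In males the largest at the criterion in FID against IS were Ifit1 (1.29, SE 0.49, adjusted p 0.786), at 3.19 ± 1.37 against 1.35 ± 0.952 CPM, Pias1 (0.38, SE 0.12, adjusted p 0.786), a STAT inhibitor, and Irf2bp1 (-0.23, SE 0.10, adjusted p 0.786). In FIDch against IS they were Usp18 (0.76, SE 0.34, adjusted p 0.625), which removes Isg15 from proteins and dampens interferon signaling, Oasl2 (0.75, SE 0.25, adjusted p 0.456) and Rtp4 (0.70, SE 0.31, adjusted p 0.623). In ISch against IS they were Uba7 (0.52, SE 0.19, adjusted p 0.403), the activating enzyme of Isg15, Parp12 (0.50, SE 0.17, adjusted p 0.384) and Tor3a (-0.44, SE 0.18, adjusted p 0.463). In FIDch against FID they were Tmem173 (0.75, SE 0.32, adjusted p 0.242), the sensor adaptor STING, Parp14 (0.36, SE 0.15, adjusted p 0.225) and Irf3 (0.36, SE 0.13, adjusted p 0.177). In FIDch against ISch they were Ifnlr1 (-1.39, SE 0.44, adjusted p 0.207), Lgals3bp (0.41, SE 0.13, adjusted p 0.227) and Samd9 (-0.32, SE 0.09, adjusted p 0.191).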

How the data were processed

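Raw read counts per gene were deposited for 16 male and 16 female hippocampi. The authors made these counts with HISAT2 and featureCounts of Subread after FastQC and Trimmomatic, on build Rnor_6.0 per the labels, without normalization. Whether strand was used, and how reads that fit several genes were counted, is not given in the sources used here. Symbols and Ensembl identifiers are those of the tables.

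Counts were analysed with edgeR 4.0.16 in R 4.3.3. Each pair of groups was fitted apart with TMM factors, filterByExpr and the quasi-likelihood test, p-values were adjusted by Benjamini-Hochberg over all genes tested, and the criterion (an unadjusted p under 0.05 and a log2 fold change beyond 0.2) was that of the study. Interactions within a sex and differences between the sexes were terms of fits over 16 libraries. The SE was the log2 fold change over the square root of F. The fits were tested on simulated data. Alternatives were RLE factors, all genes with at least 1 count, DESeq2 1.42.0, the likelihood ratio test, 1 fit over all 4 groups of a sex, a replicate block, and each library left out. Leaving out the 3 male libraries with another form of name was added after seeing the data.

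The 7 genes and all lists were chosen with earlier results of these data known. In each comparison the pathway genes named are those with an adjusted p under 0.05 and, besides, the 3 at the criterion whose log2 fold change was farthest from 0. The genes like Ifi27 are the 5 with the highest Pearson r per sex, among named genes of at least 1 CPM on average. Replicate pairs differed by 2.02 to 25.2 times counting noise (chi-square per gene, 48 pairs), so none looked like a repeat of another library. Female FIDch 4 stood apart from its group over all genes, with pairs at 22.4 to 25.2 beside 5.35 to 6.87 among the other FIDch libraries. Female ISch 1 did so too, with pairs at 11 to 14.3 beside 5.18 to 6.68 among the other ISch libraries. Why these libraries differ was not tested. Where separate litters are not stated, p-values measure only the spread between these samples. Figures were drawn with matplotlib.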

Additional observations from a re-analysis of the deposited data

Results flagged for a closer look

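Ifi27 in male FIDch 2 stood apart from the other libraries of its group, at 86.9 CPM against 35.8 CPM in the next highest, a gap of 0.874 of the group's whole range. It is 1 of the 3 male libraries with another form of name, and its Mx2 was at 4.80 CPM.

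Ifit3 in female IS 4 stood apart in the same way, at 3.57 CPM against 0.909 CPM in the next highest, a gap of 0.913 of the range. In all, 56 sets of 4 libraries (7 genes in 8 groups) were looked at, and chance gives about 1 such gap in 20 sets.

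The effect of FID against IS on Ifi27 differed between the sexes by 1.18 on the log2 scale (adjusted p 0.0439), with -0.96 in males and 0.23 in females. Without 1 library in turn it ranged from 1.08 to 1.39, and over its 17 alternatives the adjusted p ranged from 0.000884 to 0.14.

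The effect of ISch against IS on Stat2 differed between the sexes by -0.484 (adjusted p 0.0191), with 0.36 in males and -0.12 in females. In both cases sex, batch and extraction kit cannot be told apart.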

How the results depend on the processing

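Of the values of single genes, 1508 stayed on the same side of the criterion under the alternatives. Those that met it kept their direction, while those short of it could change sign within a set number of SEs. Besides these, 63 fell short of it, 24 came to meet it, 6 moved and 2 reversed, changing sign and coming to meet it. For the interaction and sex terms an adjusted p under 0.05 took the place of the criterion. Ifi27 in male FID against IS, Ifi27 and Mx2 in female ISch against IS and Stat2 in male ISch against IS met the criterion in every alternative run, with ranges of -1.15 to -0.85, -0.70 to -0.42, 0.49 to 0.82 and 0.27 to 0.40. The reversed values were Ifi27 in male ISch against IS and Ifit3 in female FID against IS. The former turned from 0.08 to -0.55 without ISch 1 and ISch 2, left out after their high values were seen. The latter turned from -0.04 to 0.92 without IS 4 and ranged from -0.29 to 0.92 over the libraries left out in turn. DESeq2 took Ifi27 below the criterion in male FIDch against IS (-0.62), male FIDch against ISch (-0.70) and female FIDch against ISch (0.55), and did so for female Irf7 in FID against IS and Mx1 in ISch against IS. The fit of all 4 groups did so for female Ifi27 in FID against IS (0.23), Mx2 in FIDch against IS and Irf7 in FIDch against ISch, and brought male Mx2 in ISch against IS (-0.95) to it, as did all genes of at least 1 count. The causes were not tested.

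Over all genes, male FID against IS had 640 at the criterion and 1023 with every gene of at least 1 count. Without male ISch 1 and ISch 2, chosen after seeing the data, male ISch against IS had 679 in place of 1125 and the difference between the sexes in ISch had 36 genes with an adjusted p under 0.05 in place of 194, with fewer samples. Without FIDch 2 as well, the male interaction had 3 in place of 1. Leaving out 1 library gave 392 (without IS 1) to 1236 (without IS 3) in male FID against IS, 681 to 1267 in FIDch against IS, 815 to 1811 in ISch against IS, 1295 to 2003 in FIDch against FID and 781 to 1634 in FIDch against ISch. In females it gave 858 to 1032, 1108 to 1528, 1278 to 2042, 1633 to 2065 and 572 to 1025 in the same order. The interactions ran from 0 to 8 in males and 0 to 25 in females, and the differences between the sexes from 2 to 8 (FID), 26 to 99 (FIDch) and 87 to 454 (ISch).

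Replicate numbers did not pair the samples (correlations of same-numbered libraries -0.309 to 0.334). With a replicate block, male FID against IS had 795 genes at the criterion, the other 9 comparisons of groups stayed within 1.5 times their counts, and both interactions had 0 genes with an adjusted p under 0.05 in place of 1. The block took female Irf7 (FID against IS), Mx1 (ISch against IS) and Ifi27 (FIDch against ISch) below the criterion, and brought Mx2 in male ISch against IS (-1.24) and FIDch against ISch (0.66) and female Ifi27 in FIDch against FID (-0.32) to it. Depth limits male Ifit3, with 5 to 23 counts.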
